A study of Mus musculus with 40 samples.

Results

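The genes described here are 9 well-known genes of the integrated stress response, chosen by name from the 18024 genes of the deposited table: Atf4, Atf3, Ddit3, Trib3, Chac1, Asns, Psat1, Phgdh and Fgf21. All 9 were in the table, and each had 1 row. RNA was sequenced from heart, kidney, ovary, pancreas and small intestine of C57BL/6j mice aged 60 days, and the series addresses what acute p53 activation does within 24 hours when Mdm2, the ubiquitin ligase that holds p53 down, is lost. Control mice, called Tg, were Mdm2+/- Cag-CreERTg, and mice that lose Mdm2, called FMTg, were Mdm2FM/- Cag-CreERTg. Both groups carry 1 disrupted copy of Mdm2 and a Cre recombinase under the Cag promoter, which is active in most cell types, so the controls also have a single intact copy of Mdm2. The agent that starts recombination is not given in the sources used here. Each tissue gave 3 Tg and 5 FMTg libraries, and the 40 libraries came from 13 mice. The same 3 Tg mice gave all 15 Tg libraries, and the FMTg libraries came from 10 mice.

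In the integrated stress response, kinases that sense amino acid shortage, unfolded protein in the endoplasmic reticulum, haem shortage or viral RNA phosphorylate the translation factor eIF2. General protein synthesis then falls while the messenger RNA of the transcription factor ATF4 is translated more, so the RNA level of Atf4 need not follow its protein. ATF4, alone or with partners such as CHOP and ATF3, binds composite elements in the genes it induces, which make, import and load amino acids, adjust glutathione, feed back on the response or are secreted. The pancreas is known for a high basal activity of one of these kinases, PERK, because acinar cells secrete large amounts of enzyme.

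The promoters of the 9 genes were searched for TGATGNAA, the core of the composite element through which ATF4 and C/EBP proteins bind, on both strands, from 250 bases before to 50 bases after the start in RefSeq on GRCm38.p6. The letters were found in 5 of the 9 genes, Atf3, Chac1, Trib3, Asns and Fgf21, and not in this window of Atf4, Ddit3, Psat1 or Phgdh. The motif was present in 3.97% of all 32851 RefSeq promoters of this length, and 4.51% of 27025 genes held it in at least 1 promoter. The stretches around the matches are shown because they hold the letters these genes share. The genes were chosen as known genes of the response, several of them as targets of ATF4. Their share with the motif is therefore not independent of the choice. They are written 5′ to 3′ in the direction of the gene, with the match in capitals. A match is a description of the letters and not a binding site.
Atf3: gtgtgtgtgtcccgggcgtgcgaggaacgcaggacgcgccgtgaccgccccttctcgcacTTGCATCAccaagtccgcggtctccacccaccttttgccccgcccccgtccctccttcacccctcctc
Chac1: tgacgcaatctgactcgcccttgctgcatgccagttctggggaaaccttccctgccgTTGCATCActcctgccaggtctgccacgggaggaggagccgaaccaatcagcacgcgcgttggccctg
Trib3: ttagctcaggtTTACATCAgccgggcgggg
Asns: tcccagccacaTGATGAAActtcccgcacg
Fgf21: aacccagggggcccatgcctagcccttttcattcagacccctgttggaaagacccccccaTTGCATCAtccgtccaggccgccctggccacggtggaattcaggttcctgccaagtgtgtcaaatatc
The stretches lie at chr1:191183376-191183503 on the minus strand for Atf3, chr2:119350992-119351116 on the plus strand for Chac1, chr2:152344028-152344057 on the minus strand for Trib3, chr6:7693214-7693243 on the minus strand for Asns and chr7:45615562-45615689 on the minus strand for Fgf21. Relative to the start, the first base of the match was at -110 in Atf3, -193 in Chac1, 15 in Trib3, -23 in Asns and -139 in Fgf21. In Asns the match was on the strand of the gene, and in the other 4 genes it was on the opposite strand.

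Recovered library totals ran from 7.16 to 29.0 M reads, and a list of 10 p53 targets, chosen like the other lists with earlier results of these data known, was examined for the activation. All 10 were called higher on the mean effect over tissues, with Cdkn1a, the cell cycle inhibitor p21, at 1.83 ± 0.24 (log2, SE) and Mdm2 at 1.25 ± 0.15 (limma, Benjamini-Hochberg adjusted p = 7.59e-06 and 1.38e-06). Tissue by tissue 9 of the 10 were called in pancreas, 10 in kidney, 3 in heart and 0 in ovary and small intestine, although every estimate was positive, so the fits of the last 3 tissues left most or all of these targets uncalled as well. Mdm2 is itself a p53 target and has 1 value per gene, so its level does not show whether the conditional exons were deleted. The labelled tissues carried their markers: acinar enzymes took 29.0 to 50.7% of pancreas reads, tubule genes 2.27 to 4.00% of kidney reads, cardiomyocyte genes 1.53 to 5.14% of heart reads, epithelial genes 0.540 to 2.28% of small intestine reads and ovarian cell genes 0.0106 to 0.0843% of ovary reads. Some libraries stood apart. In the ovary library of Tg replicate 1, acinar enzymes took 19.3% of reads, against at most 4.07% in the other 7 ovary libraries. FMTg replicates 4 and 5 came in every tissue from the mice with the lowest identification numbers, and in each tissue these libraries had more genes without a read than the other 6, for instance 4087 and 6020 against 1559 to 2618 in the pancreas. Outside the ovary these replicates, and FMTg replicate 1 of the pancreas, carried reads of Y-linked genes (323 to 6907 reads, against at most 38 in the other libraries), and no Tg library was among them. In the ovary the same replicates came from low-numbered mice with at most 6 such reads, so Y-linked reads and low mouse number did not always go together. Low mouse number and the count of genes without a read cannot be told apart, and the effects that rest on these replicates are given with and without them. In kidney, heart and small intestine, sex as read from Y-linked genes cannot be told apart from low mouse number either. Leaving these replicates out there removes every library high in Y-linked reads. The labels give no sex. Heart FMTg replicate 2 also stood apart, with 0.118% leukocyte marker reads against at most 0.0443% in the other 7 heart libraries, 1.53% cardiomyocyte reads against at least 3.35%, and the highest erythroid share of the tissue, 2.14%. In the pancreas, tubule genes took 0.600% of reads in FMTg replicate 3, against at most 0.00555% in the other 7 libraries. Its acinar share, 29.0%, was the lowest there. In the ovary, intestinal epithelial genes took 0.621% of reads in FMTg replicate 3, against at most 0.0481% in the other 7, and acinar enzymes took 4.07%.

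Loss of Mdm2 moved none of the 9 genes past the test in any tissue. With limma and Benjamini-Hochberg adjustment over all genes of a tissue, 0 of 9 were called in pancreas, ovary and heart alike, and 0 of 8 in kidney and small intestine. Fgf21 was too low to be tested in the kidney and small intestine. Among all genes tested the share called was 0.446% for pancreas, 0.616% for kidney, 0% for ovary, 0.019% for heart and 0% for small intestine, so at the background rate a list of this size would hold no call. At an unadjusted p below 0.05 the count was also 0 of the tested genes in each of the 5 tissues, where 8.42%, 8.32%, 6.36%, 6.33% and 2.41% of all genes passed in the same order. With some libraries left out it was 1 or 2, as given with the alternatives at the end. In no tissue were the Tg and FMTg libraries of any of the genes fully apart, against 9.73%, 8.73%, 5.8%, 6.92% and 2.88% of all genes. The smallest adjusted p (limma) was 0.802 for pancreas, 0.564 for kidney, 0.828 for ovary, 0.764 for heart and 0.990 for small intestine. Median differences of the genes (FMTg minus Tg, log2) were 0.27 for pancreas, -0.10 for kidney, 0.07 for ovary, 0.09 for heart and -0.03 for small intestine, where the medians over all genes tested were -0.05, -0.05, -0.02, -0.01 and -0.05. A p that misses the threshold does not show that a gene was equal in both genotypes, and the intervals below give the sizes that these libraries leave possible. In a bulk sample a change in the number of cells of a type and a change in RNA per cell cannot be told apart.

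**Figure D1:**
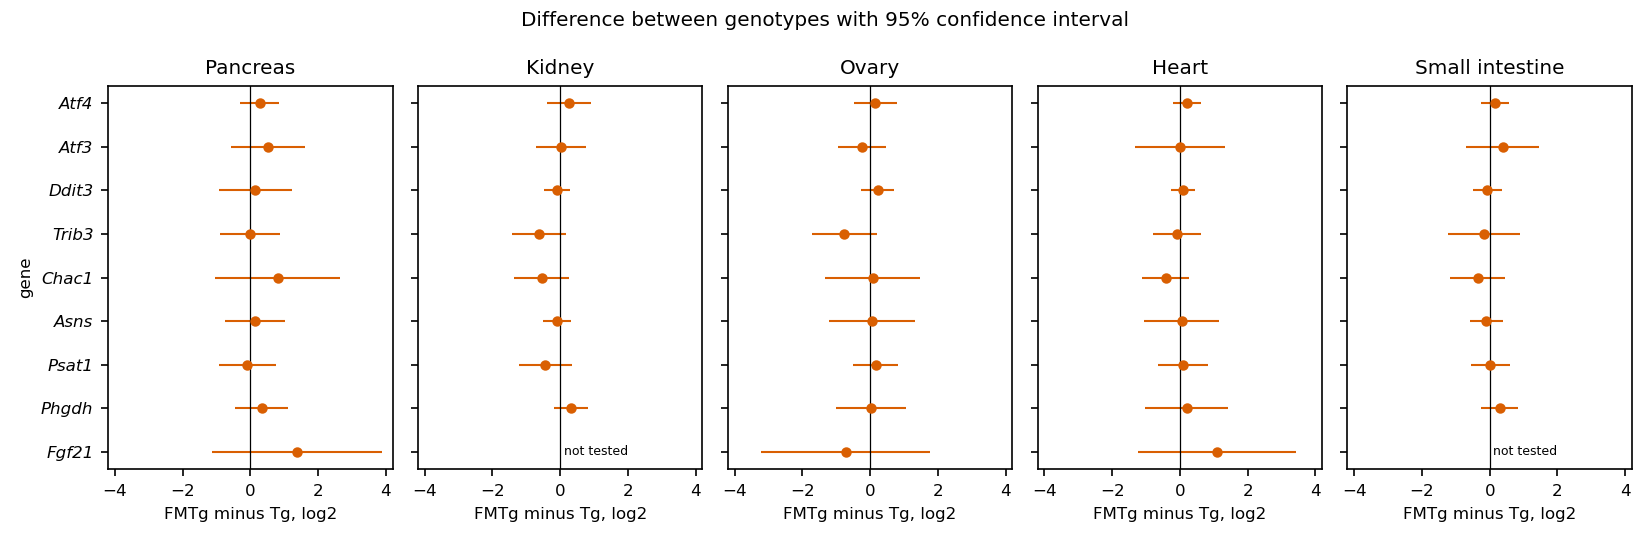
Difference between genotypes (FMTg minus Tg, log2, x axis) for each gene (y axis) in each tissue, with points for the limma estimate and bars for its 95% confidence interval from 3 Tg and 5 FMTg libraries. Every interval includes 0, and the widest is that of Fgf21 in the pancreas, -1.14 to 3.88.

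Atf4 (ENSMUSG00000042406, chr15:80255184-80257541) encodes the transcription factor at the centre of the response. All values per library below are normalised reads, that is recovered reads divided by the size factor of the library, and are listed from replicate 1 up. Pancreas libraries held 2663, 2617 and 2590.0 in Tg and 3269, 2764, 1894, 4405 and 4278 in FMTg. The Tg libraries lay close together, and the FMTg libraries spread on both sides of them. The FMTg library below them was replicate 3, in which tubule genes took 0.600% of reads, and the part of that RNA was not tested. The difference was 0.27 ± 0.26 (log2, SE), with a 95% interval of -0.30 to 0.85 and an adjusted p of 0.826 by limma. Kidney held 1175, 931 and 1178 in Tg and 906, 1054, 1025, 2269 and 1678 in FMTg. Ovary held 1602, 1182 and 1256 in Tg and 982, 1230.3, 1322, 2212 and 2095 in FMTg. In these 3 tissues FMTg replicates 4 and 5 were the highest of the 8 libraries in normalised reads. In the pancreas this rests on their size factors, 0.162 and 0.349, against 0.388 to 0.612 in the other 6. Recovered reads of Atf4 there were 715 and 1494 of 7.16 and 12.7 M. In Tg they were 1298, 1015 and 1109 of 11.4, 11.6 and 9.87 M. As a share of all reads replicate 4 thus lay within the range of the controls. Replicate 5 lay above it and below FMTg replicate 1 (1659 of 13.9 M). FMTg replicates 1 to 3 overlapped the controls in kidney and ovary. In the pancreas replicates 1 and 2 lay above the controls and replicate 3 below them. Small intestine held 1613, 2091 and 2003 in Tg and 1921, 1668, 1929, 2664 and 2516 in FMTg. Heart held 1279, 1311 and 1485 in Tg and 1409, 1797, 1150.0, 1903 and 1692 in FMTg, where replicate 4 was highest and replicate 2 next. The small intestine, where replicates 4 and 5 were the same mice as in the pancreas, again had them highest, and the heart did not. Genes with FMTg replicates 4 and 5 highest in at least 4 of the 5 tissues made up 4.67% of all genes tested, and within a single tissue the share was 12.8% for pancreas, 20.4% for kidney, 15.4% for ovary, 14.6% for heart and 16.8% for small intestine. Without these replicates the difference of Atf4 was -0.03 for pancreas, -0.13 for kidney, -0.19 for ovary, 0.08 for heart and -0.04 for small intestine. In the ovary adipocyte markers took 0.251 and 0.291% of reads in replicates 4 and 5, against at most 0.0529% in the other 6 libraries. The ovary replicates had at most 6 Y-linked reads. The part of adipocyte RNA, mouse number, sex and genes without a read in the high values was not tested.

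**Figure D2:**
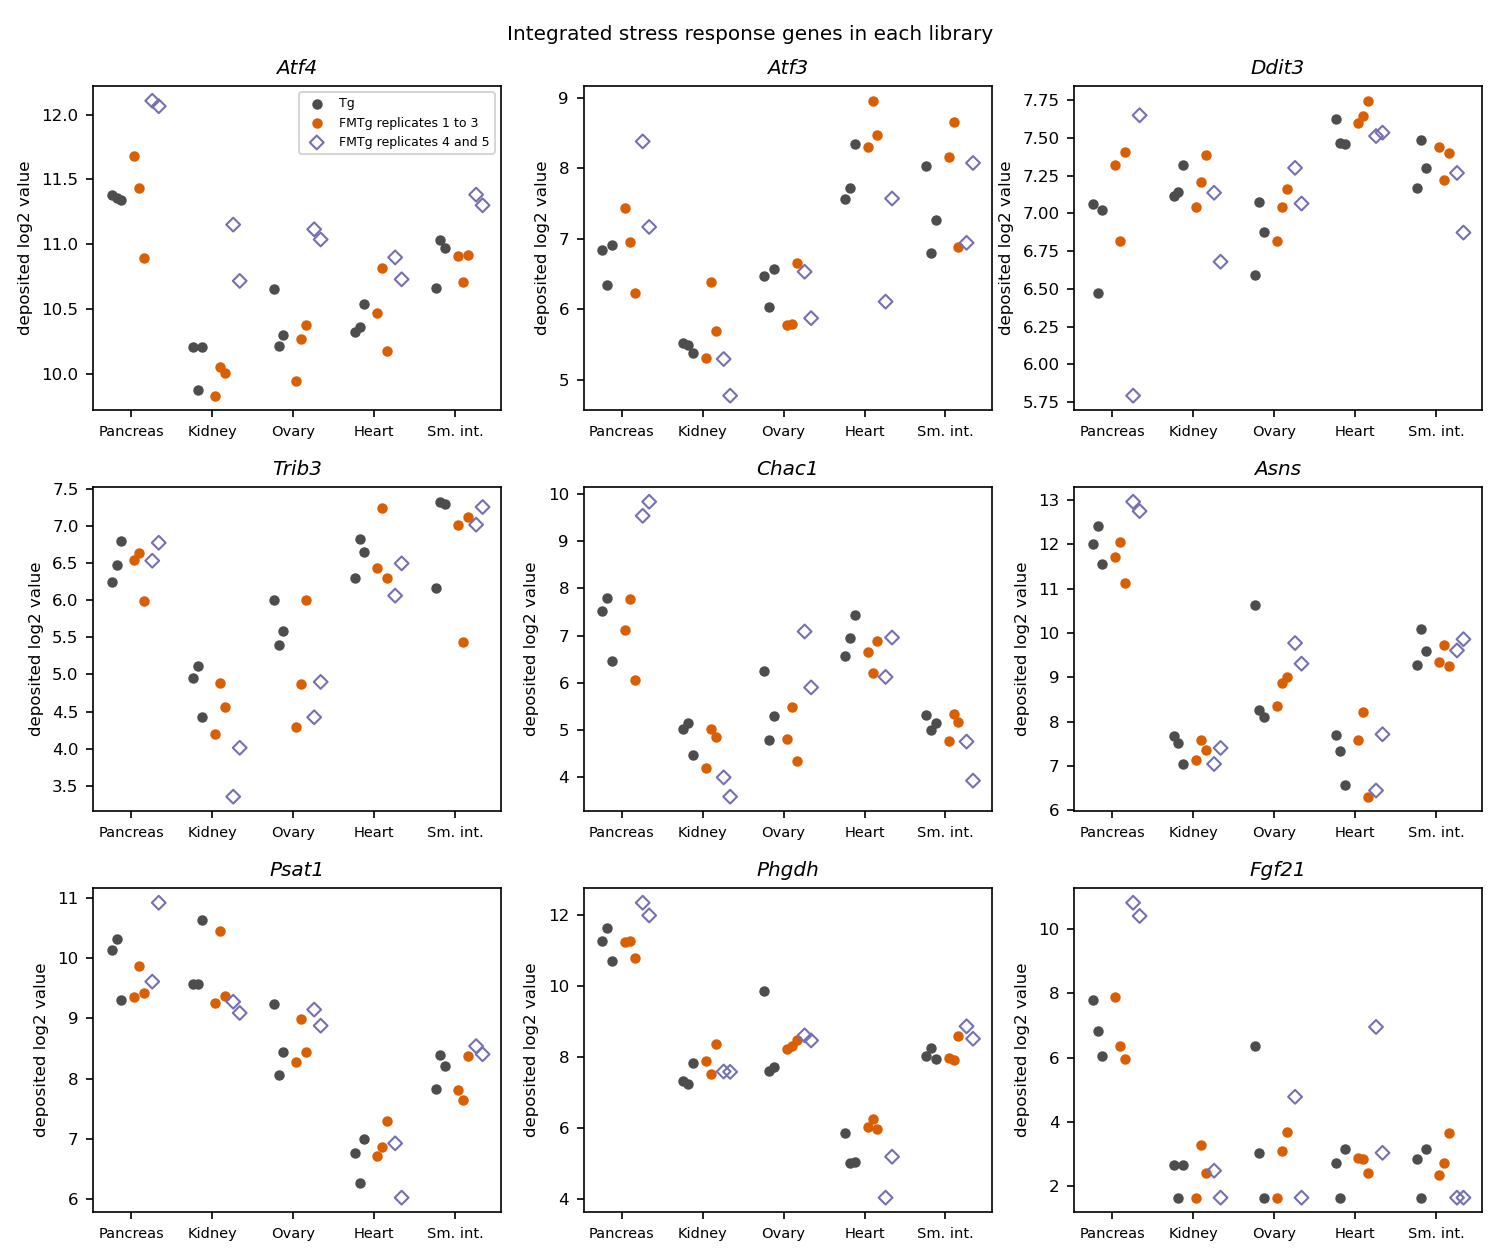
Deposited log2 value (y axis) of each gene in every library, by tissue (x axis), with grey points for Tg, orange points for FMTg replicates 1 to 3 and open diamonds for FMTg replicates 4 and 5. For Atf4 the diamonds are the highest libraries in 4 of 5 tissues, and for Fgf21 they stand apart in the pancreas at 1780.4 and 1337 normalised reads.

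Atf3 and Ddit3 are transcription factors that ATF4 induces, Ddit3 encoding CHOP. Atf3 (ENSMUSG00000026628, chr1:191170296-191218039) is also an immediate early gene that many stresses raise. Its pancreas values were 109, 74.8 and 114 in Tg and 168, 118, 68.6, 327 and 137 in FMTg, and its heart values 183, 204 and 319.6 in Tg and 309, 490.0, 349, 62.9 and 184 in FMTg. Single libraries of 1 genotype thus differed several times over, with FMTg replicate 4 the highest in the pancreas and the lowest in the heart. The highest heart library, FMTg replicate 2, is the one high in leukocyte and erythroid markers, and it was also the highest of the 8 for Trib3 (146), Asns (291) and Phgdh (70.4). Without it the heart differences were -0.26 for Atf3, -0.27 for Trib3, -0.19 for Asns and 0.01 for Phgdh, and the part of the other cells was not tested. The small intestine spanned 105 to 255 in Tg and 112 to 397 in FMTg, the ovary 59.2 to 88.7 and 48.6 to 94.3, and the kidney 35.4 to 40.02 and 21.5 to 77.6. Differences ran from -0.23 ± 0.31 in the ovary to 0.53 ± 0.49 in the pancreas (log2, SE), and the pancreas interval was -0.56 to 1.62.

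Ddit3 (ENSMUSG00000025408, chr10:127290774-127296288) overlaps Mars on the opposite strand, and since no strand setting is stated, reads of the 2 genes cannot be told apart where they overlap. It varied least in the heart, with 191, 171 and 170.2 in Tg and 188, 194, 209, 176 and 179 in FMTg, and there the interval of the difference, -0.26 to 0.44, was narrow. In the pancreas Ddit3 held 127, 82.5 and 124 in Tg and 154, 106, 163, 49.3 and 195 in FMTg. The lowest of these 8 libraries was FMTg replicate 4, the library in which Fgf21 was highest. That value rests on 8 recovered reads of Ddit3, in the library with the lowest total, 7.16 M. Differences elsewhere were -0.10 ± 0.17 in the kidney, 0.23 ± 0.21 in the ovary and -0.08 ± 0.19 in the small intestine (log2, SE).

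Trib3 and Chac1 are targets of ATF4 and CHOP. TRIB3 is a pseudokinase that feeds back on ATF4 and on AKT, and CHAC1 breaks down glutathione. Trib3 (ENSMUSG00000032715, chr2:152337422-152344032) had the lower FMTg estimate in all 5 tissues, from -0.76 ± 0.42 in the ovary to -0.01 ± 0.39 in the pancreas (log2, SE). In the ovary it held 57.8, 35.99 and 41.8 in Tg and 13.8, 23.2, 57.7, 15.6 and 23.9 in FMTg. Of the FMTg ovaries 4 lay below every Tg ovary and 1 lay beside the highest. The latter was replicate 3, in which intestinal epithelial genes took 0.621% of reads, against at most 0.0481% in the other ovary libraries. The highest control was Tg replicate 1, the library with 19.3% acinar reads. The part of RNA of other tissues in these values was not tested. In the kidney Trib3 held 25.1, 28.5 and 15.7 in Tg and 12.6, 23.6, 17.8, 4.90 and 10.5 in FMTg, with 3 FMTg libraries below every control. The adjusted p was 0.828 in the ovary and 0.564 in the kidney by limma. The small intestine held 65.5, 154 and 150.5 in Tg and 123, 37.4, 133, 123 and 146 in FMTg, and without FMTg replicate 2 the difference there turned from -0.16 to 0.17. It also turned without Tg replicate 2 (0.04) or Tg replicate 3 (0.03). The heart difference turned from -0.08 ± 0.31 to 0.07 without FMTg replicates 4 and 5, to 0.03 without FMTg replicate 4 alone and to 0.04 without Tg replicate 2. Kidney and ovary stayed negative whichever library was left out. In the pancreas the estimate turned positive when Tg replicate 3 (0.13) or FMTg replicate 3 (0.11) was left out.

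Chac1 (ENSMUSG00000027313, chr2:119351229-119354381) held 176, 217 and 81.7 in Tg pancreas and 132, 213, 60.5, 733 and 902 in FMTg pancreas. FMTg replicates 4 and 5 were far above the other 6 libraries, which overlapped. The difference was 0.80 ± 0.82 (log2, SE), with an interval of -1.04 to 2.65, and -0.28 without those replicates. Kidney held 26.7, 29.3 and 16.5 in Tg and 12.6, 26.6, 23.2, 10.4 and 6.61 in FMTg, with replicates 4 and 5 the lowest. Heart spanned 88.1 to 167 in Tg and 63.6 to 118 in FMTg, ovary 21.6 to 70.3 and 14.6 to 129.6, and small intestine 26.00 to 33.9 and 9.63 to 34.7. High Chac1 in replicates 4 and 5 was therefore seen in the pancreas and, for replicate 4, in the ovary (129.6), and not in the kidney, heart or small intestine. Of these other tissues only the small intestine had the same mice as the pancreas in replicates 4 and 5.

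Asns makes asparagine, and Phgdh and Psat1 encode the first enzymes of serine synthesis. Asns (ENSMUSG00000029752, chr6:7675169-7693254) held 4091, 5490.0 and 3006 in Tg pancreas and 3372, 4278, 2230.3, 7984 and 6896 in FMTg pancreas. Phgdh (ENSMUSG00000053398, chr3:98313170-98339990) held 2450.0, 3164 and 1658 in Tg pancreas and 2442, 2478, 1766, 5237 and 4084 in FMTg pancreas. For both, FMTg replicates 4 and 5 were the highest in normalised reads and FMTg replicates 1 to 3 lay within or below the range of the controls. Recovered reads of Asns in replicates 4 and 5 were 1296 and 2408 of 7.16 and 12.7 M, and 2129 of 11.6 M in Tg replicate 2. As a share of all reads Asns in replicate 4 was thus not above that control. Phgdh, with 850 and 1426 reads, was still highest in both replicates on that share. Differences were 0.13 ± 0.40 for Asns and 0.34 ± 0.35 for Phgdh (log2, SE), and -0.36 and -0.09 without replicates 4 and 5. In all, 5 of the 9 genes (Atf4, Chac1, Asns, Phgdh and Fgf21) had these replicates as the 2 highest pancreas libraries, beside the 12.8% of all genes given above. The same libraries had the highest acinar shares of the 8, 50.7 and 45.6% against 29.0 to 40.004%, and the lowest leukocyte marker shares, 5.31e-04 and 0.00521% against 0.0116 to 0.0242%. Per M acinar enzyme reads, replicates 4 and 5 had 197 and 258 reads of Atf4, of which the former was the lowest of the 8 libraries (the other 6 ran from 223 to 344), and 234 and 246 reads of Phgdh, within the 212 to 309 of the others. Chac1 was above the others on that scale too, at 32.8 and 54.3 against 10.4 to 26.5. The part of acinar content in these values was not tested.

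In the ovary, Asns held 1579.8, 301 and 269 in Tg and 321, 464, 507, 869.7 and 628 in FMTg, and Phgdh held 924, 189.6 and 206 in Tg and 295, 312, 350.2, 385 and 347 in FMTg. Tg replicate 1, the library with 19.3% acinar reads, was the highest of the 8 for both genes, and the other Tg ovaries were the lowest. In that library the genes had 582 reads of Asns and 340.4 reads of Phgdh per M acinar enzyme reads, where the pancreas of the same mouse had 500.4 and 299.6 and the 8 pancreas libraries ran from 309 to 533 and from 212 to 309. With it the differences were 0.07 ± 0.56 for Asns and 0.02 ± 0.46 for Phgdh (log2, SE). Without it they were 0.88 and 0.75, and the adjusted p was 0.999 and 0.874 by limma. In that fit 2 of the 9 genes had an unadjusted p below 0.05 by limma, and the share of all genes below it was not computed. Acinar enzymes took 0.00114 to 4.07% of reads in the FMTg ovaries, and the highest Asns among them, 869.7 in replicate 4, came with 0.00508%.

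The remaining tissues held less of both enzymes than the pancreas. Asns spanned 614 to 1093 in Tg and 604 to 924 in FMTg in the small intestine, 125 to 198 and 126 to 187 in the kidney, and 88.9 to 202 and 73.02 to 291 in the heart. Phgdh spanned 242 to 296 and 236 to 460.4 in the small intestine, 144 to 220.4 and 177 to 323 in the kidney, and 26.3 to 51.6 and 10.6 to 70.4 in the heart. The groups overlapped in each of these. The Phgdh estimate was positive in all 5 tissues, with 0.32 ± 0.22 in the kidney and 0.29 ± 0.24 in the small intestine (log2, SE, adjusted p = 0.576 and 0.990 by limma). Its sign in the pancreas turned without FMTg replicates 4 and 5, to -0.09. The ovary sign turned without those replicates (-0.06), without replicate 4 alone (-0.03) and, by more, without Tg replicate 2 (-0.37) or Tg replicate 3 (-0.32).

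Psat1 (ENSMUSG00000024640, chr19:15904678-15947337) held 751, 752 and 1593 in Tg kidney and 604, 1397, 655, 614 and 539 in FMTg kidney. Of the FMTg kidneys 4 lay below every control, and replicate 2 lay near the highest control. The difference was -0.44 ± 0.34 (log2, SE), and -0.68 without FMTg replicate 2 (adjusted p = 0.355 by limma). Pancreas held 1122, 1279 and 626 in Tg and 650.3, 928, 681, 776 and 1936 in FMTg, with replicate 5 alone above the controls. Psat1 so differed from Asns and Phgdh in pancreas replicate 4, where it was within the range of the other libraries. Ovary spanned 259.9 to 602 in Tg and 303 to 560.5 in FMTg, small intestine 221 to 329 and 193 to 366, and heart 70.8 to 121 and 58.7 to 150.4.

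Fgf21 (ENSMUSG00000030827, chr7:45613886-45615490) encodes a secreted hormone of nutrient stress that ATF4 induces and that the exocrine pancreas makes. Its pancreas values were 215, 108 and 60.7 in Tg and 227, 75.4, 55.6, 1780.4 and 1337 in FMTg. Replicates 4 and 5 were far above every other pancreas library, and the other FMTg libraries lay across the range of the controls. The difference was 1.37 ± 1.12 (log2, SE), with an interval of -1.14 to 3.88, and -0.18 without them. Per M acinar enzyme reads those libraries had 79.7 and 80.5 reads of Fgf21, against 7.77 to 26.4 in the other 6, so they stood above the others on that scale too. For Asns the same replicates had 357 and 415 per M, within the range of the other libraries. Both mice also gave a small intestine library, in which no read of Fgf21 was found.

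Outside the pancreas Fgf21 was near the limit of detection. Kidney values were 1.57, 0 and 1.57 in Tg and 0, 4.56, 0.892, 1.09 and 0 in FMTg, and small intestine values 2.31, 0 and 3.81 in Tg and 0.743, 1.83, 7.06, 0 and 0 in FMTg. The ovary held 76.6, 3.20 and 0 in Tg and 0, 3.44, 7.31, 21.6 and 0 in FMTg. The high control there was again Tg replicate 1, with 28.2 reads per M acinar enzyme reads against 26.4 in the pancreas of the same mouse. Without it the ovary difference turned from -0.72 to 0.62. Heart values were 1.87, 0 and 3.78 in Tg and 2.37, 2.32, 0.869, 117 and 3.16 in FMTg. FMTg replicate 4 alone had a high value, and acinar enzymes took 0.000304% of its reads, the lowest share of any heart library. Its mouse also gave the kidney library of FMTg replicate 4, in which Fgf21 stood at 1.09. The heart difference was 1.11 ± 1.02 with that library and 0.27 without it (log2).

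Over all tissues together the genes also stayed below the test. In a limma model of 40 libraries that took mouse as random block, at a correlation of 0.265, 0 of 8 genes were called on the mean of the 5 tissue effects, where 0.805% of all 14532 genes were, and 0 of 8 had an unadjusted p below 0.05, where 12.7% had. Atf4 had the smallest p among them, with a mean effect of 0.30 ± 0.15 (log2, SE), an interval of -0.01 to 0.60 and an adjusted p of 0.408 by limma. Without FMTg replicates 4 and 5 it was -0.06. Trib3 had a mean effect of -0.35 ± 0.26, and the other 6 lay between -0.05 and 0.23. The median of the 8 was 0.05, beside -0.06 over all genes tested. An F test for differences between tissues in the genotype effect called 0 of 8 genes (adjusted p = 1.00 for each by limma), where it called 0.227% of all genes, and 0 of 8 passed at an unadjusted p below 0.05, where 9.15% did. Fgf21 was too low in 2 tissues to enter either test.

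In the 15 Tg libraries all 9 genes differed between tissues (limma F test, adjusted p from 3.70e-06 for Phgdh to 0.0124 for Ddit3), as did 93.8% of all 16251 genes tested. Of the 36 steps between tissues next to each other in the order of a gene's levels, 13 were called, where 28.9% of such steps were over all genes. Those 13 became 12 without Tg replicate 1, 4 without Tg replicate 2 and 4 without Tg replicate 3, each of which leaves 2 mice per tissue, and the step of Phgdh from pancreas to ovary was the 1 of the 13 called whichever Tg mouse was left out (adjusted p up to 0.0430 by limma). The levels below are normalised reads per kb of exon (mean ± SD, n = 3 mice), which allows genes to be compared. Between tissues they rest on the size factors, 0.388 to 0.487 in the Tg pancreas at 9.87 to 11.6 M reads. The other Tg libraries had 0.796 to 1.30 at 11.2 to 17.4 M. As a share of all reads, pancreas values would therefore be lower beside the other tissues. With voom on recovered reads and trimmed-mean scaling, 9 of the 36 steps were called.

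Asns was the most abundant of the 9 in the pancreas, at 1534 ± 455, and fell to 301 ± 89.5 in small intestine, 262 ± 273 in ovary, 60.8 ± 13.6 in kidney and 54.5 ± 20.7 in heart. The step from pancreas to small intestine was 5.05-fold and was called (adjusted p = 0.00298 by limma, 0.0531 without Tg replicate 2). The step from kidney to heart was not called. The step from ovary to kidney was called (adjusted p = 0.0261) with the ovary library of Tg replicate 1 and not without it (adjusted p = 0.0674), and that from small intestine to ovary was called without it and not with it (adjusted p = 0.00275). Phgdh stood at 975 ± 303 in the pancreas, 6.95-fold above the ovary on the fitted scale (adjusted p = 4.93e-04 by limma), then at 177 ± 169 in ovary, 106 ± 11.3 in small intestine, 69.6 ± 16.6 in kidney and 13.99 ± 5.84 in heart. Steps among ovary, small intestine and kidney were not called, and that from kidney to heart was (adjusted p = 0.00224, 0.0657 without Tg replicate 3). Without the ovary library of Tg replicate 1 the order of ovary and small intestine turned (-0.40, log2).

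Psat1 did not follow that order, with 243 ± 114 in the kidney and 237 ± 80.2 in the pancreas, a step that was not called (0.00 ± 0.37, log2, SE). The kidney mean rested on Tg replicate 3, and without that mouse kidney minus pancreas was -0.67, which turns the order. It stood at 94.2 ± 41.98 in the ovary, 65.7 ± 12.8 in the small intestine and 23.04 ± 5.96 in the heart, and the steps from pancreas to ovary and from small intestine to heart were called (adjusted p = 0.00839 and 0.00402 by limma, 0.156 and 0.0696 without Tg replicate 2). In the kidney the RNA of Phgdh stood at 69.6 ± 16.6. Recovered reads of Psat1 in the Tg kidney were 957, 949 and 2024 of 15.9, 15.7 and 16.7 M. In the Tg pancreas they were 547, 496 and 268 of 11.4, 11.6 and 9.87 M. As a share of all reads Psat1 was thus higher in the kidney. Fgf21 stood at 135 ± 83.3 in the pancreas and 27.97 ± 45.6 in the ovary, the latter mostly from Tg replicate 1, and at 2.15 ± 2.02 in small intestine, 1.98 ± 1.99 in heart and 1.10 ± 0.954 in kidney. The step from pancreas to ovary was called (adjusted p = 0.0121, and 1.52e-04 without the ovary library of Tg replicate 1, by limma), and no step among the lower tissues was. The call was lost without Tg replicate 2 (adjusted p = 0.142) and without Tg replicate 3 (0.117).

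Atf4 was abundant in every tissue. Its order was pancreas at 1113 ± 15.7, small intestine at 807 ± 108, heart at 576 ± 46.99, ovary at 571 ± 95.1 and kidney at 464 ± 60.03. The first steps, 1.39-fold each, were called (adjusted p = 0.00960 and 0.00739 by limma), and the last ones were not. The former was lost without Tg replicate 3, and the latter without Tg replicate 2 or 3 (adjusted p up to 0.0763 and 0.0864). Recovered reads of Atf4 in the Tg pancreas were 1298, 1015 and 1109 of 11.4, 11.6 and 9.87 M. In the Tg small intestine they were 2093, 2091 and 2103 of 17.4, 14.5 and 14.4 M. As a share of all reads Atf4 was thus higher in the small intestine, so this order rests on the scaling. Chac1 was high in the pancreas (96.7 ± 42.3) and heart (75.9 ± 24.5), a step that was not called, and low in the ovary (25.5 ± 15.5), small intestine (18.2 ± 2.42) and kidney (14.8 ± 4.13). The step from heart to ovary was 2.90-fold (adjusted p = 0.00667 by limma, and up to 0.107 without Tg replicate 2 or 3).

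The stress transcription factors and Trib3 were not highest in the pancreas. Atf3 stood at 109 ± 34.2 in the heart, 78.6 ± 35.9 in small intestine, 46.1 ± 9.95 in pancreas, 35.7 ± 7.25 in ovary and 17.7 ± 1.11 in kidney. Of these steps the last was called (adjusted p = 0.0248 by limma), though not without the ovary library of Tg replicate 1 (0.0544), all libraries of Tg replicate 1 (0.0554) or those of Tg replicate 3 (0.220). Ddit3 had the narrowest range of the 9, from 104 ± 6.96 in the heart to 64.3 ± 11.2 in the ovary, with 89.98 ± 10.3 in the small intestine, 81.9 ± 6.70 in the kidney and 64.9 ± 14.5 in the pancreas, and no step between neighbours was called. Its F test was lost without Tg replicate 1, 2 or 3 (adjusted p = 0.0574, 0.0522 and 0.134). Trib3 stood at 58.04 ± 23.6 in small intestine, 42.8 ± 8.31 in heart and 40.4 ± 8.42 in pancreas, steps that were not called, then at 21.3 ± 5.30 in the ovary and 10.9 ± 3.12 in the kidney. The steps from pancreas to ovary and from ovary to kidney were called (adjusted p = 0.0404 and 0.0462 by limma). The former was lost without Tg replicate 2 or 3 (up to 0.289) and the latter without any Tg mouse (0.0602 to 0.290) or the ovary library of Tg replicate 1 (0.145).

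**Figure D3:**
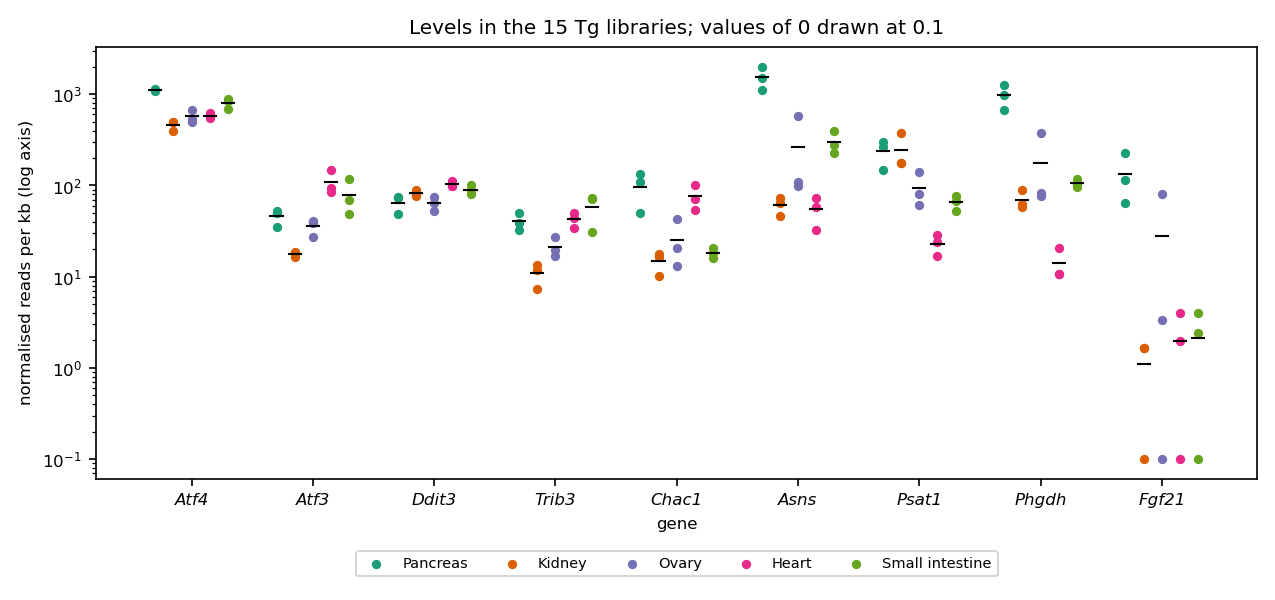
Normalised reads per kb of exon (log axis) in the 15 Tg libraries by gene (x axis) and tissue (colour), with points for the 3 mice, bars for their mean and values of 0 drawn at 0.1. Asns, Phgdh and Fgf21 are highest in the pancreas, and the means of Ddit3 lie between 64.3 and 104.

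The other genes of the pathway were taken from lists and gave calls in 1 list only. On the mean effect over tissues, 0 of 15 kinase, eIF2 and eIF2B genes, 0 of 8 partner transcription factors, 0 of 11 amino acid and one-carbon enzymes, 0 of 9 amino acid transporters, 0 of 13 tRNA synthetase and export genes and 0 of 8 mitochondrial stress genes were called, and none of these 64 genes was called in any single tissue. At an unadjusted p below 0.05 the counts on the mean effect were 2, 1, 0, 2, 2 and 0, beside the 12.7% of all genes given above, and so near that rate. Medians ran from -0.20 for the transporters to 0.12 for the amino acid enzymes, beside -0.06 for all genes.

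Of 12 other ATF4 or CHOP targets, 3 rose on the mean effect and 9 did not pass: Gdf15, a secreted stress cytokine, by 2.00 ± 0.29, Sesn2, an inhibitor of mTORC1, by 1.37 ± 0.19, and Tnfrsf10b, a death receptor, by 1.22 ± 0.20 (log2, SE, adjusted p = 3.14e-05, 1.76e-05 and 2.45e-04 by limma). All 3 are also known p53 targets. They stayed called in all 15 other settings of that model. The kidney called all 3 and the pancreas called Sesn2. The Sesn2 call was lost in the pancreas when any of Tg replicates 1 to 3 or FMTg replicates 1, 2 and 5 was left out (adjusted p = 0.0637 to 0.171) and in the kidney without any of Tg replicates 1 to 3 or FMTg replicates 1 and 5 (0.0511 to 0.195).

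Named members of the lists without a call were the 2 with the smallest p on the mean effect. Eif2b2, a subunit of the exchange factor of eIF2, had 0.46 ± 0.17, and Gcn1l1, a partner of the kinase GCN2, had -0.24 ± 0.12 (adjusted p = 0.249 and 0.390 by limma). Among transcription factors Nfe2l2, the antioxidant regulator NRF2, had 0.31 ± 0.13 and Jdp2 had 0.30 ± 0.20. Among enzymes Shmt2, a mitochondrial serine enzyme, had 0.32 ± 0.19 and Got1, an aspartate aminotransferase, had -0.38 ± 0.24. Of the transporters, Slc38a2, which imports neutral amino acids, had -0.41 ± 0.12 and Slc7a3, which imports cationic ones, had -1.18 ± 0.51 (adjusted p = 0.128 and 0.323). Slc38a2 was negative in all 5 tissues, and it was called without the mouse block (adjusted p = 0.0141) and without FMTg replicate 2 (0.0299), and not in the other 13 settings tried (0.0775 to 1.00). Of the tRNA synthetases Lars had -0.30 ± 0.13 and Yars -0.20 ± 0.09, and of the mitochondrial chaperones Hspe1 had 0.33 ± 0.18 and Hspa9 0.23 ± 0.12.

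**Figure D4:**
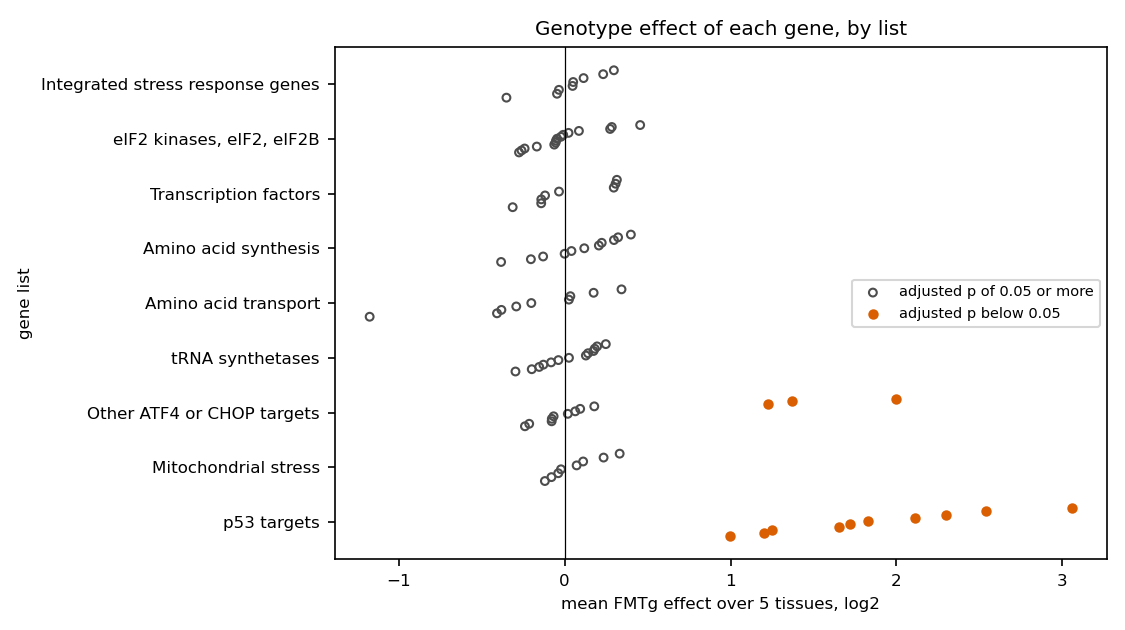
Mean genotype effect over 5 tissues (FMTg minus Tg, log2, x axis) of each gene in the lists (y axis), filled where the adjusted p is below 0.05. The filled points are Tnfrsf10b, Sesn2 and Gdf15, at 1.22, 1.37 and 2.00, and all 10 p53 targets.

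How the 9 genes varied together was described from the deviations of each library from the mean of its tissue and genotype, over 40 libraries. These points share mice and depth, and the values are descriptions without a test. The 36 pairs had a median Pearson's r of 0.25 (Spearman's rho 0.21), from -0.28 for Ddit3 with Asns to 0.70 for Asns with Phgdh. Chac1 with Fgf21 (0.56) and Chac1 with Asns (0.54) were the other pairs above 0.5. Without the ovary libraries, which include the one with acinar reads, the median was 0.14 and Asns with Phgdh was 0.56. Atf4 had its highest r with Asns (0.46) and Fgf21 (0.43), and the r of Ddit3 with the other 8 genes lay between -0.28 and 0.16. Without FMTg replicates 4 and 5, over 30 libraries, the median was 0.26, 7 pairs lay above 0.5 and 10 below 0. Asns with Phgdh was again the highest pair (0.70), Atf4 was highest with Trib3 (0.64, against 0.06 in all libraries), and Ddit3 with Chac1 was the lowest pair at -0.61. Some pairs, of these and of other genes, thus depended on these libraries. Phgdh with Fgf21 went from 0.22 to 0.66 and Atf3 with Phgdh from 0.37 to -0.15. Atf4 with Asns moved less, from 0.46 to 0.58.

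**Figure D5:**
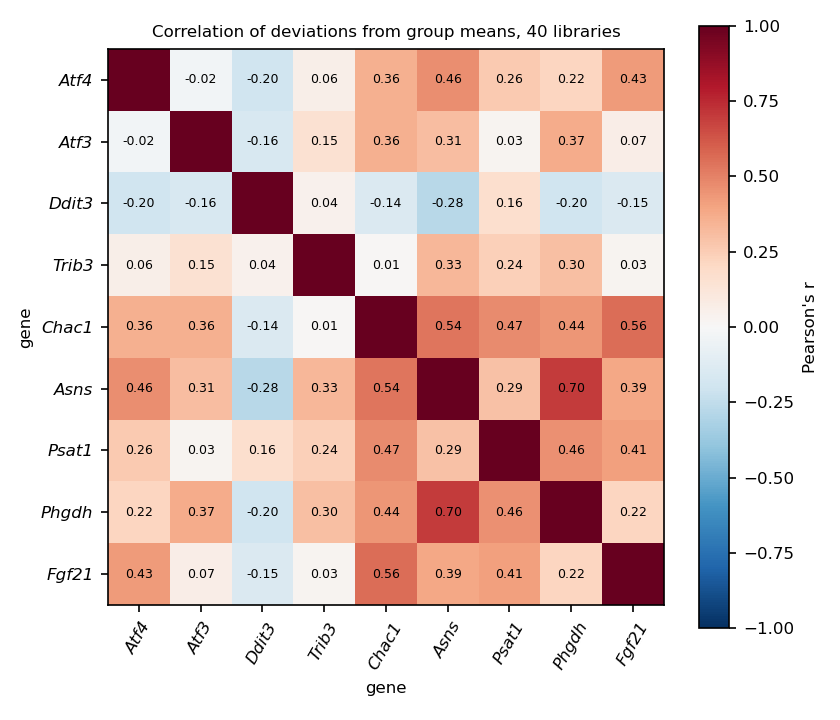
Pearson's r between the deviations of each pair of genes from their tissue and genotype means in 40 libraries, from blue for -1 to red for 1. The highest value is 0.70 for Asns with Phgdh, and Ddit3 is negative with Asns at -0.28.

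Among all 14532 genes, those whose deviations were most like each gene were also listed. Psat1 went with Sdf2l1 (r = 0.74), Creld2 (0.71) and Hyou1 (0.71), which act in protein folding in the endoplasmic reticulum. Asns went with Aplp1 (0.75), Tmed3 (0.74) and Eif2ak3 (0.72), the last of which encodes PERK. Phgdh went with Eef1akmt3 (0.83), Bhlha15 (0.77), the acinar transcription factor MIST1, and Eif2ak3 (0.74). Spearman's rho with Eif2ak3 was 0.53 for Asns and 0.61 for Phgdh, and that of Phgdh with Bhlha15 was 0.77. All values of this kind include the ovary library of Tg replicate 1, with 19.3% acinar reads. They were not computed without it, so its part in them is not known. Chac1 went with Zfp9 (0.76), Anxa6 (0.74) and Aldh1l2 (0.74), a mitochondrial folate enzyme, and Fgf21 with Xpot (0.78), the tRNA exporter, Tmem97 (0.78) and Plekhb1 (0.76). Atf4 went with Gorasp2 (0.91), Rpsa (0.90) and Yipf5 (0.89). Trib3 went with Dnm1 (0.79), Elmo2 (0.76) and Ddhd2 (0.75), and Atf3 with Thbs3 (0.74), Cyb561d1 (0.70) and Ick (0.70). For Ddit3 the genes were Tbc1d31 (0.82), Fmnl3 (0.82) and Gimap5 (0.82), and without FMTg replicates 4 and 5 these values were 0.23, 0.36 and 0.53. Other values that fell without them were 0.38 for Atf3 with Cyb561d1, 0.46 for Chac1 with Zfp9 and 0.50 for Chac1 with Anxa6. The remaining values were 0.58 or higher.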

How the data were processed

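RNA was sequenced from 40 libraries of 5 mouse tissues. The submitters' processing notes name STAR 2.6.0b, GRCm38 and DESeq2. The read counter, annotation release and strand setting are not given in the sources used here. The values deposited by the authors are on a log2 scale after variance stabilisation across libraries, with 1.65 as the value of a gene without reads. Inverting them gave whole reads for 100% of values (tolerance 0.01) and totals of 7.16 to 29.0 M reads per library.

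In each tissue FMTg and Tg libraries were compared on the deposited values with limma 3.58.1 in R 4.3.3, with genotype as the only term and a mean-variance trend. A gene was tested where its mean in the tissue exceeded the lowest value by 1 or more. Calls needed p below 0.05 after Benjamini-Hochberg adjustment over all genes. Log2 differences are compressed for genes with few reads. The model of all tissues used mouse as a random block (statmod 1.5.0), and so did the model of 15 Tg libraries. Procedures were tested on simulated data. Of 18024 gene IDs 18017 matched GENCODE M21, which gave positions and exon lengths. Promoters are from RefSeq. The genes and lists were chosen with earlier results of these data known. The text names all 9 genes, up to 4 called members of each list or else the 2 of smallest p on the mean effect, and the 3 genes most like each gene. Of the marker lists, Amy2b had no row. Replicates are separate mice per the labels, and mice recur across tissues, though an FMTg replicate number is not always the same mouse in every tissue. The alternatives were other filters, no trend, array weights, voom on recovered reads with either scaling, libraries left out and a replicate block.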

Additional observations from a re-analysis of the deposited data

Results flagged for a closer look

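Among the 43 groups of 5 FMTg libraries examined, 3 held a library that lay far from the other 4, by a gap of more than 0.710 of the range of the group. Chance gives such a gap in about 1 of 20 groups. Trib3 stood at 37.4 normalised reads in FMTg replicate 2 of the small intestine, where the other 4 ran from 123 to 146. Psat1 stood at 1397 in FMTg replicate 2 of the kidney, where the other 4 ran from 539 to 655. Fgf21 stood at 117 in FMTg replicate 4 of the heart, where the other 4 ran from 0.869 to 3.16.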

How the results depend on the processing

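Of the 9 genes, 0 were called in any tissue, on the mean effect or by the F test between tissues under every alternative run, the lowest adjusted p being 0.236 by tissue and 0.182 on the mean effect. At an unadjusted p below 0.05 by limma, up to 2 passed. There were 2 of 8 in kidney without FMTg replicate 2 and 2 of 8 in heart without FMTg replicates 4 and 5. Ovary had 2 of 9 without Tg replicate 1, and pancreas 1 of 9 without FMTg replicate 3. The share of all genes was not computed for these fits. In the pancreas 7 of 9 estimates were positive, 9 of 9 without FMTg replicate 3 and 2 of 9 without FMTg replicates 4 and 5. The count of genes called across Tg tissues was 9, and 7 to 8 with 1 Tg mouse left out. Signs were less stable: 29 of 43 differences by tissue changed sign in at least 1 of 17 alternatives, all of them uncalled, and 16 of 42 did so without FMTg replicates 4 and 5. Over all genes the calls depended more on the setting: 68 in the pancreas (0 to 328 over the alternatives, and more with array weights), 95 in kidney (46 to 211), 0 in ovary (0 to 63), 3 in heart (0 to 30), 0 in small intestine (0 to 55), 117 on the mean effect (49 to 364) and 33 by the F test (5 to 53), the highest counts by tissue coming from array weights or 1 model of all libraries. The median correlation between the genes was 0.25 and moved to 0.14 without the ovary libraries.

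Replicate numbers do not pair the mice of the 2 genotypes. Same-numbered libraries had correlations of deviations from -0.59 to 0.59, and 3 of 15 correlated best with their own number. With a replicate block 0 of these genes were called in every tissue, on the mean effect and by the F test, and 16 of 43 signs changed. That fit gives replicates 4 and 5, which have no Tg partner, no weight. Across Tg tissues the block kept 9 calls. Leaving out the ovary library of Tg replicate 1 in the models of several tissues was chosen after the data were seen. Fgf21 was too low to be tested in the kidney and small intestine.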
